A study of Mus musculus with 18 samples.

Results

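The 10 genes described here encode proteins that bind fatty acids or bring them into cells. They are 5 cytosolic fatty acid binding proteins (Fabp1, Fabp2, Fabp3, Fabp4 and Fabp5), the scavenger receptor Cd36, and 4 fatty acid transport proteins (Slc27a1, Slc27a2, Slc27a4 and Slc27a5). They were taken by name from the 21899 genes listed for the series, all 10 were found, and every one of the 18 libraries was used. RNA came from liver, epididymal white adipose tissue (eWAT) and skeletal muscle of male wild type C57BL/6 mice aged 18 weeks. HSD mice received a diet enriched in sodium chloride and saline to drink for 12 weeks, and control (CON) mice received chow and tap water. There were 3 CON and 3 HSD libraries per tissue, and no mouse carried a transgene. Levels are FPKM as deposited, that is, fragments scaled to exon length and to the fragments of the library.

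Long-chain fatty acids reach cells bound to albumin or freed from circulating triglyceride by lipoprotein lipase. Cd36 on the plasma membrane and the Slc27a proteins, several of which also join fatty acids to coenzyme A, favour their entry. Inside the cell the Fabp proteins carry these poorly soluble molecules to membranes, to mitochondria and to the nucleus. Each Fabp is named after the tissue where it was first found in quantity: liver (Fabp1), intestine (Fabp2), heart and muscle (Fabp3), adipocyte (Fabp4) and epidermis (Fabp5).

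The libraries held 7628273 to 16640283 fragments over the listed genes. All 19 hepatocyte markers reached 1 FPKM in every liver library, all 8 adipocyte markers in every eWAT library, and 13 or 14 of 14 fast muscle markers in every muscle library. Some libraries stood apart. Liver CON replicate 2 (library CON16L) held skeletal muscle transcripts, with 13 of 14 fast muscle markers at 1 FPKM or more, Tnnc2 at 0 and a marker sum of 5158 FPKM, against 0 to 3 markers and sums of 2.78 to 7.39 in the other 5 liver libraries. The eWAT HSD replicate 2 (library HS3W) held epididymal transcripts, with all 12 epididymal markers at 1 FPKM or more and a sum of 24361 FPKM, against 1.10 to 13.8 in the other 5 eWAT libraries. Transcripts of mitochondrial DNA took 15.4 to 60.8% of the fragments of a liver library, which lowers the FPKM of all other genes in the libraries with a high share. Where a direction or a call turned on CON16L or HS3W, the value without that library is given.

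In CON mice each of the 10 genes had a tissue of highest level, and the tissues rarely overlapped. Liver led for Fabp1, Fabp2, Slc27a2 and Slc27a5. eWAT led for Fabp4, Fabp5, Cd36, Slc27a1 and Slc27a4. Skeletal muscle led for Fabp3.

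Fabp1 (chr6:71199827-71205023, GRCm38), the liver-type binding protein, had the highest liver level of the 10 genes. Its FPKM was 1917, 6577 and 7087 in the CON livers, 22.2, 20.6 and 13.0 in CON eWAT, and 0.273, 2.90 and 0.647 in CON muscle. The 3 tissues did not overlap, and the CON livers differed among themselves by more than the eWAT libraries did. The mean CON liver level, 5194 ± 2849 FPKM (SD, n = 3), was 279 times that of eWAT.

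Fabp2 (chr3:122895072-122899506), the intestinal-type protein, was present in liver at 4.35, 25.7 and 16.5 FPKM in CON and at 37.2, 39.5 and 6.30 FPKM in HSD. It was listed at 0 in all 6 muscle libraries and in the 3 HSD eWAT libraries, where 3 fragments would have given 0.228 to 0.278 FPKM. This limit covers counting error only, because fragments amplified by PCR are not independent molecules. In each liver library 1 of the 8 intestinal epithelium markers reached 1 FPKM.

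Slc27a2 (chr2:126552407-126588243) and Slc27a5 (chr7:12988346-12998192), transport proteins with very long chain acyl-CoA and bile acyl-CoA synthetase activity, were the other liver genes. Slc27a2 was at 228, 254 and 228 FPKM in CON livers, 4.14, 2.67 and 0.817 in CON eWAT, and 0.101, 0.382 and 0.238 in CON muscle. Slc27a5 was at 46.7, 111 and 111 FPKM in CON livers, 1.18, 2.30 and 0.666 in CON eWAT, and 0.0310, 0.519 and 0.0367 in CON muscle. Slc27a2 had the smallest spread of the 4 liver genes among CON livers (SD 15.2 on a mean of 236 FPKM), and for Slc27a5 the library lowest in Fabp1 was again the lowest.

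Fabp4 (chr3:10204088-10208576), the adipocyte-type protein, and Cd36 (chr5:17781690-17888801), the receptor for long-chain fatty acids, had the highest eWAT levels. Fabp4 was at 2100, 2020 and 2057 FPKM in CON eWAT, 37.2, 54.3 and 41.3 in CON muscle, and 0.905, 12.0 and 1.53 in CON livers. Cd36 was at 1207, 1196 and 1164 FPKM in CON eWAT, 87.7, 119 and 83.5 in CON muscle, and 0.548, 31.1 and 2.74 in CON livers. For both genes the order was eWAT, muscle, liver with no overlap, the CON eWAT libraries differed by a few percent, and CON16L was the highest liver library.

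Slc27a1 (chr8:71568882-71587302), the transport protein of fat and muscle, followed the same order at lower levels: 101, 86.7 and 63.8 FPKM in CON eWAT, 16.5, 16.5 and 13.2 in CON muscle, and 1.15, 4.82 and 0.937 in CON livers. Fabp5 (chr3:10012548-10016607), the epidermal-type protein that macrophages and endothelium also make, was at 30.6, 36.7 and 37.7 FPKM in CON eWAT. Its CON muscle values of 2.60 to 2.71 FPKM lay above the CON liver values of 0.845 to 2.39 FPKM by little. Slc27a4 (chr2:29802634-29817522), a widely expressed transport protein, was at 10.5, 10.8 and 11.7 FPKM in CON eWAT, 2.53 to 3.12 FPKM in CON muscle and 1.43 to 2.34 FPKM in CON livers, the flattest profile of the 10.

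Fabp3 (chr4:130308595-130315463), the protein of heart and oxidative muscle, was at 471, 545 and 477 FPKM in CON muscle and at 0.909, 0.160 and 0.730 FPKM in CON eWAT. In CON livers it was at 0.159, 269 and 0.133 FPKM, so that its order between liver and eWAT turned on CON16L.

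**Figure D1:**
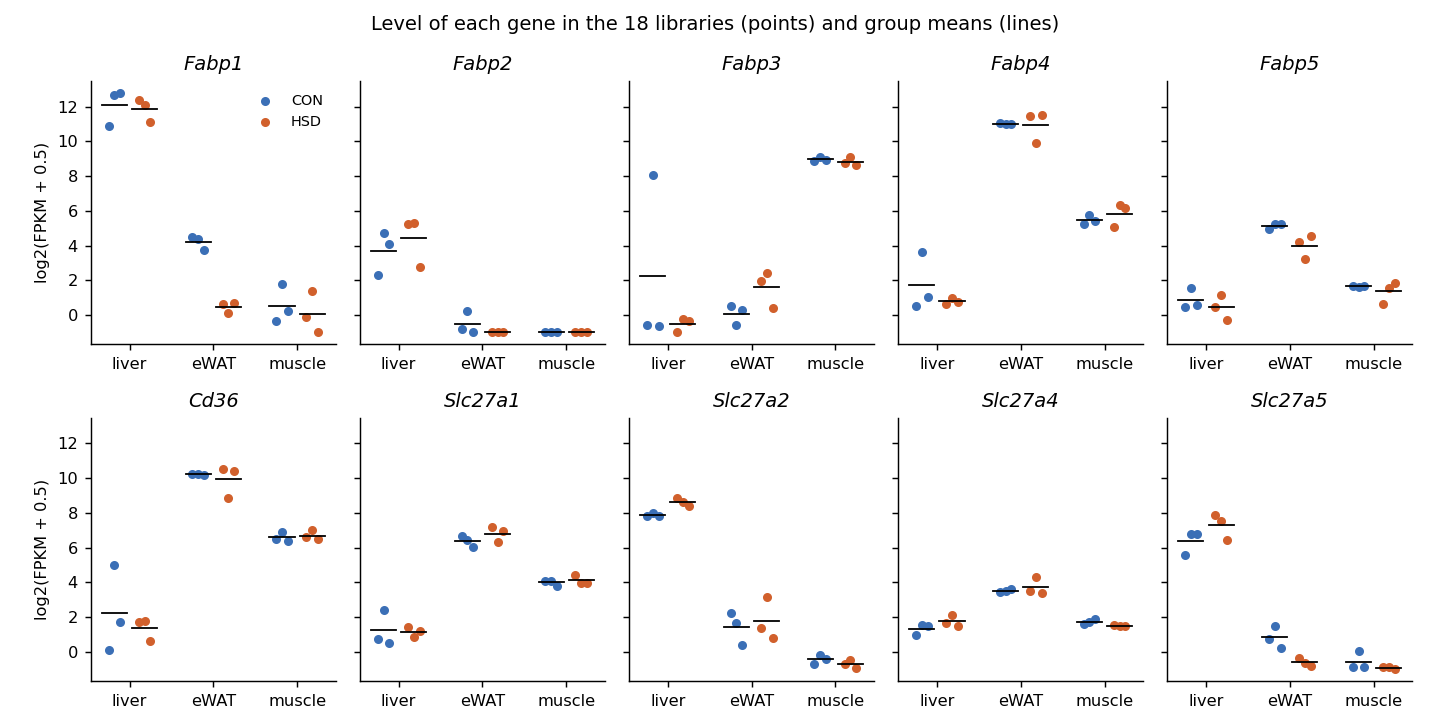
Level of each of the 10 genes, as log2(FPKM + 0.5), in the 18 libraries by tissue and diet (blue, CON; orange, HSD); points are libraries, lines are group means and a value of -1 is 0 FPKM. The single liver points far above the others for Fabp3, Fabp4 and Cd36 are the same CON library, CON16L, and the low HSD eWAT point for Fabp4 and Cd36 is HS3W.

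Tissues were compared among CON libraries with limma on log2(FPKM + 0.5), and a gene was called where the Benjamini-Hochberg adjusted p was under 0.05 and the log2 fold change was 1 or more in size. Between eWAT and liver, 9 of the 10 genes were called, beside 67.4% of all 13067 genes tested. Between muscle and liver 8 were called, beside 48.4%, and between eWAT and muscle 9, beside 53.3%. Most genes differed between these tissues, so the members are described by the size of their differences. The largest was Fabp1 in muscle against liver, with a log2 fold change of -11.60 (SE 0.64, adjusted p = 4.55e-10). Fabp4 in eWAT against liver reached 9.29 (SE 0.63, adjusted p = 2.70e-09) and Fabp3 in eWAT against muscle -8.89 (SE 1.54, adjusted p = 9.43e-05).

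The pairs not called were few. Fabp5 and Slc27a4 did not pass between muscle and liver, with log2 fold changes of 0.82 (adjusted p = 0.0834) and 0.42 (adjusted p = 0.116), and the latter turned to -0.12 with median-ratio scaling. Fabp2 did not pass between eWAT and muscle, both near 0. Fabp3 did not pass between eWAT and liver: its log2 fold change of -2.21 (adjusted p = 0.197) became 0.70 without CON16L, and -3.64 or -3.67 without CON14L or CON72L, when it was called beside 67.1 and 66.3% of all genes. Without CON16L the muscle against liver difference of Fabp3 was 9.59 in place of 6.69 on the log2 scale, and Fabp5 was called too, beside 51% of all genes.

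The transport proteins lost calls under other scalings, which also lowered the share of all genes called. Over all genes, the median log2 difference between eWAT and liver went from 1.33 to 0.011 with median-ratio scaling and to 0.081 with quantile normalization, and between eWAT and muscle from 0.91 to 0.11 and 0.071. Between eWAT and liver, Slc27a4 (log2 fold change 2.22 as deposited) came to 0.76 with median-ratio scaling and to 0.92 with quantile normalization, leaving 8 genes called in each, beside 41.2 and 39.9% of all genes. Between eWAT and muscle, Slc27a4 and Slc27a5 were not called with median-ratio scaling, which left 7, beside 37.4% of all genes. Slc27a2, Slc27a4 and Slc27a5 were not called there with quantile normalization, which left 6, beside 35.9%, and Slc27a5 was not called with a pseudocount of 1 (0.96 on the log2 scale), which left 8, beside 46.2%.

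Within a library, 1 binding protein made up most of the summed FPKM of the 5 Fabp genes. Fabp1 took 95.5 to 99.7% of the sum in the 6 livers, Fabp4 97.2 to 99.2% in the 6 eWAT libraries and Fabp3 84.3 to 92.5% in the 6 muscle libraries. Of the 4 Slc27a genes, Slc27a2 took 66.4 to 82.2% in liver, with Slc27a5 at 16.9 to 32.9%. Slc27a1 took 73.4 to 91.6% in eWAT and 79.5 to 89.3% in muscle.

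These shares depend on the length by which a gene's fragments were divided. The deposited values used all exonic bases of a gene, which for Fabp4 are 4489 bases against 896 of its RefSeq transcript, and for Fabp5 and Slc27a1 3.61 and 2.09 times the RefSeq transcript. Per kilobase of the RefSeq transcript, Fabp4 took 27.8 to 46.5% of the Fabp sum in muscle in place of 7.17 to 15%, and Fabp3 took 52.0 to 71.5%. In the Fabp sum the share of the leading gene moved by less than 2 percentage points in liver and eWAT. In the Slc27a sum Slc27a1 came to 83.4 to 95.3% in eWAT and 88.1 to 94.1% in muscle, and Slc27a2 to 70.3 to 84.5% in liver. The ratio of the FPKM of 1 gene between libraries does not depend on its length. The log2 fold changes of the fits do, because a fixed pseudocount was added to FPKM. This weighs most on low values, such as those of Fabp4 in most livers, where a longer length gives a smaller fold change. The filter on mean FPKM depends on the length too. The fits were not repeated with the RefSeq lengths. Of the stretches of 75 bases in Fabp3 transcripts, 24.3% also occur in the pseudogene Fabp3-ps1, and 12.0% of those of Fabp5 occur in Gm6166 or another gene, so fragments of these 2 genes may have been divided between copies.

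The tissue patterns can be set beside the sequence in front of each start site. RefSeq promoter windows on GRCm38.p6 were at hand for 7 of the 10 genes, and the 250 bases before the start were searched on both strands for AGGTCANAGGTCA, the direct repeat bound by PPAR, RXR and HNF4 receptors, which are known regulators of fatty acid handling. At most 1 mismatch was found in 0.484% of 32851 windows, and among the members in Fabp1 alone. At most 2 were found in 3.24% of windows, and among the members in Fabp1 and Cd36. The Fabp1 match read AGGCCATAGGTCA on the reverse strand, 67 to 55 bases before the start, and the Cd36 match AAGTCAGAGGCCA on the reverse strand, 63 to 51 bases before the start. The 2 stretches are printed because they alone among the members' windows held a match with at most 2 mismatches. Capitals mark the match as it reads on the gene's own strand. For both genes the start is the one of the RefSeq window, which lies inside the span that GENCODE gives the gene. GENCODE transcripts of both genes therefore begin farther upstream. The printed Fabp1 stretch ends just before the first base of the GENCODE span.
Fabp1, chr6:71199729-71199826, plus strand, 150 to 53 bases before the start: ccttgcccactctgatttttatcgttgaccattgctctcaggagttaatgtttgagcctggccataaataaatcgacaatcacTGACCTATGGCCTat
Cd36, chr5:17835897-17836046, minus strand, 150 bases up to the RefSeq start: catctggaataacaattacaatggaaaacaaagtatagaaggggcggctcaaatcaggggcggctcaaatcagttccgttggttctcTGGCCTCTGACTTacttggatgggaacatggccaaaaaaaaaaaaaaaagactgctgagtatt
Fabp1 also held TATAAA 30 to 25 bases before its RefSeq start, which is inside its GENCODE span. Of all windows, 12.4% held TATAAA somewhere in the 250 bases. The matches are descriptions of letters, and binding was not measured.

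In library CON16L Fabp3, Cd36, Slc27a1 and Fabp4 were high together. Fabp3 stood at 54.0% of the CON muscle mean, against at most 0.351 FPKM in the other 5 livers. Cd36 stood at 32.1%, Slc27a1 at 31.3% and Fabp4 at 27.1% of the muscle mean, each above the other 5 livers. Fabp5 was above them too, at 2.39 FPKM against 0.328 to 1.70 FPKM. The 8 slow muscle markers stood at a median of 53.3% (38.7 to 115%), and the 14 fast muscle markers at a median of 5.42% (0 to 29.2%). The highest slow marker, Atp2a2, was at 54.1 FPKM, but also at 16.9 to 43.8 FPKM in the other 5 livers. Fabp3, whose protein is most abundant in oxidative fibres, thus lay near the median of the slow markers and above all fast ones. Fabp1, Slc27a2 and Slc27a5 in CON16L lay within the range of the other livers, so the library held liver RNA as well. Lpl, the lipoprotein lipase of muscle and fat, was at 46.8 FPKM there against 0.949 to 3.22 in the other livers. How the transcripts came into the library was not tested.

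**Figure D2:**
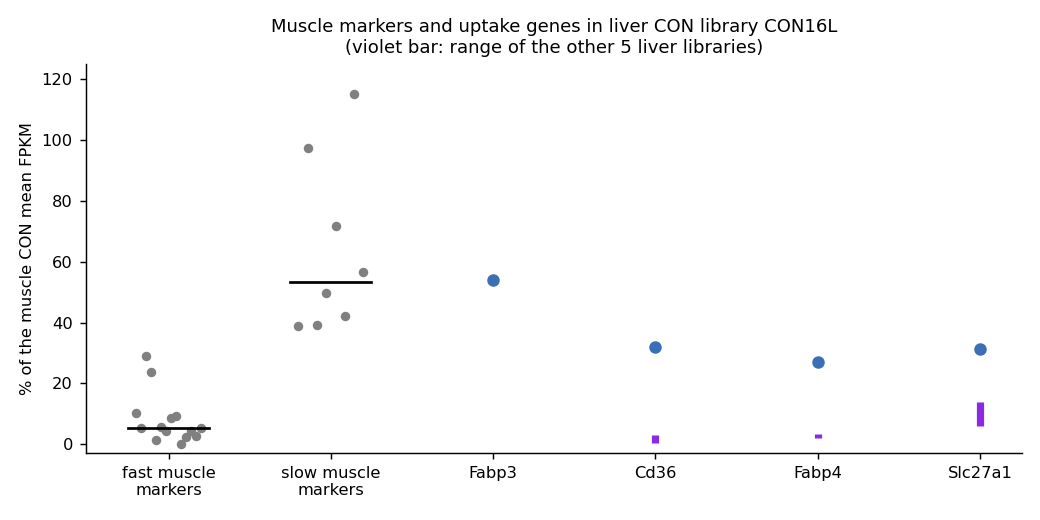
FPKM in the liver CON library CON16L as a percentage of the mean of the 3 CON muscle libraries, for 14 fast and 8 slow muscle markers (gray points, line at the median) and for 4 uptake genes (blue points); violet bars span the other 5 liver libraries. Fabp3, at 54.0%, sits at the level of the slow markers, and its bar for the other livers is too close to 0 to be seen.

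Diet was then compared within each tissue, which asks whether the genes of fatty acid uptake moved with salt intake. In liver 0 of the 10 genes were called, as were 0% of the 10317 genes tested; at an unadjusted p under 0.05 limma gave 592 genes (5.74%) and none of the 10. The same counts of calls came from voom weights on the recovered fragments. Fewer cells of a type and less RNA per cell cannot be told apart in such tissue samples.

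Slc27a2 was the only one of the 10 whose liver groups did not overlap. Its 3 HSD livers, at 465, 390 and 341 FPKM, lay above the CON livers at 228, 254 and 228 FPKM, a log2 fold change of 0.74 (SE 0.38, adjusted p = 0.764). Every HSD library was above every CON library for 8.62% of all genes tested. With mitochondrial DNA transcripts left out of the total, the Slc27a2 values became 581, 342 and 366 FPKM in CON. They became 556, 461 and 614 FPKM in HSD, and the groups overlapped. By that measure Fabp4 ceased to overlap, at 2.31, 16.1 and 2.47 FPKM in CON and 1.28, 1.70 and 2.06 FPKM in HSD. The share of all genes below CON by that measure is not given, so the order of Fabp4 is not read as a result about it.

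Slc27a5 was at 231, 188 and 85.3 FPKM in HSD livers, with a log2 fold change of 0.89 (SE 0.55, adjusted p = 0.764), and overlapped with CON. Its lowest value of each diet came from the library with the largest mitochondrial share, CON14L with 60.8% and HS5L with 44.4%. The same libraries were the lowest of their diet for Fabp1 and for Fabp2. Weighting the libraries by their spread (arrayWeights in limma) called Fabp2, Slc27a2 and Slc27a5, with log2 fold changes of 1.15, 1.02 and 1.07, beside 8.98% of all genes tested. Under that weighting 7414 of 10317 genes had an unadjusted p under 0.05, against 592 in the main fit, so these calls are not read as a result. With mitochondrial DNA transcripts left out of the total, each of these genes overlapped between the diets.

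Fabp1 was at 5362, 4398 and 2265 FPKM in HSD livers and overlapped with CON, with a log2 fold change of -0.25 (95% CI -1.82 to 1.32, adjusted p = 0.919). The direction turned with the libraries used: it was 0.031 without CON16L and 0.40 in the 4 liver libraries of the study's own comparison (without CON16L and HS5L). Set against the 19 hepatocyte markers of the same library, Fabp1 came to 9.63, 7.17 and 9.61% of their summed FPKM in CON and to 5.44, 4.35 and 4.92% in HSD. By that ratio, chosen after the values were seen, every HSD liver lay below every CON liver, as did 3.24% of all genes tested. None of the other 9 genes was separated by the same ratio.

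The genes of the fat and muscle pattern were low in HSD livers. Cd36 was at 2.81, 2.87 and 1.04 FPKM, Fabp4 at 1.07, 1.44 and 1.15, Slc27a1 at 2.15, 1.30 and 1.80, and Fabp3 at 0, 0.351 and 0.284, the last from at most 3 fragments. The negative log2 fold changes of Cd36 (-0.88), Fabp4 (-0.94) and Fabp3 (-2.80) carried adjusted p-values of 0.764 to 0.814. Without CON16L the values for Cd36 and Fabp4 turned to 0.49 and 0.017, and that of Slc27a1 went from -0.063 to 0.53. Fabp3 rested on CON16L altogether: without it the mean was 0.146 FPKM in CON (n = 2) and 0.212 FPKM in HSD (n = 3), and the gene was too low to be tested.

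**Figure D3:**
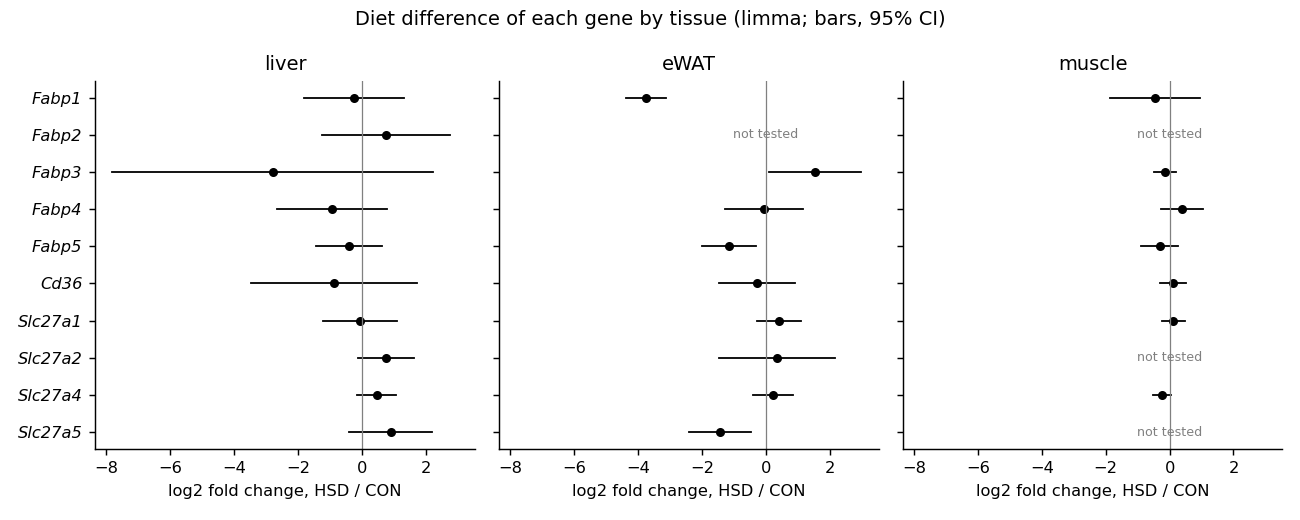
Log2 fold change of HSD over CON for each gene in liver, eWAT and muscle, with 95% confidence intervals from limma on log2(FPKM + 0.5), on 1 common axis. The widest intervals are those of Fabp3 and Cd36 in liver, and the eWAT value of Fabp1 lies farthest from 0 of all values with an interval clear of it.

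In eWAT 9 of the 10 genes had a mean of at least 0.5 FPKM and were tested, all but Fabp2. None was called, as were 0% of the 13740 genes tested, and voom gave 0 as well. At an unadjusted p under 0.05 limma gave 4 of the 9, namely Fabp1, Fabp3, Fabp5 and Slc27a5, beside 16.7% of all genes. Fabp1, Fabp5 and Slc27a5 were lower in every HSD library than in every CON library, as were 12.4% of all genes.

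Fabp1 in eWAT was at 22.2, 20.6 and 13.0 FPKM in CON and at 1.06, 0.588 and 1.11 FPKM in HSD. The HSD values rested on 4 to 8 fragments a library, the CON values on 120 to 197. The CON mean was 20.3 times the HSD mean, and the log2 fold change was -3.74 (SE 0.26, adjusted p = 0.0830). Without HS3W it was -3.56 (adjusted p = 0.0212), and Fabp1 was then called beside 1.21% of all genes. It was also called with all 18 libraries in 1 fit (adjusted p = 0.00858, beside 1.23% of all genes) and with arrayWeights (adjusted p = 0.00774, beside 1.6%), and over all alternatives the adjusted p ranged from 0.00774 to 0.364.

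Hepatocyte markers were lower in HSD eWAT as well. Their sum was 171 to 453 FPKM in CON eWAT and 17.7 to 38.3 FPKM in HSD eWAT, with 16 to 19 of the 19 markers at 1 FPKM or more in CON and 2 to 6 in HSD. Relative to the CON liver mean, the 19 markers stood at medians of 0.705, 1.13 and 0.415% in the CON eWAT libraries and of 0.0742, 0.0337 and 0.0267% in the HSD ones. Fabp1 stood at 0.428, 0.397 and 0.251% in CON and at 0.0204, 0.0113 and 0.0213% in HSD, below the marker median in each of the 6 libraries. Their part in the Fabp1 difference was not tested.

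Slc27a5 was at 1.18, 2.30 and 0.666 FPKM in CON eWAT and at 0.271, 0.133 and 0.0627 FPKM in HSD eWAT, with a log2 fold change of -1.44 (SE 0.39, adjusted p = 0.189). The HSD values rested on 2 to 9 fragments. As a percentage of the CON liver mean it stood at 1.32, 2.57 and 0.744 in CON and at 0.302, 0.149 and 0.0701 in HSD, above the marker median in all 6 libraries. Slc27a2, the other liver transport protein, did not show this order, with 4.14, 2.67 and 0.817 FPKM in CON and 2.03, 8.51 and 1.24 FPKM in HSD. Its highest value was in HS3W, the library with epididymal transcripts. Its log2 fold change was 0.35 with HS3W and -0.36 without it.

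**Figure D4:**
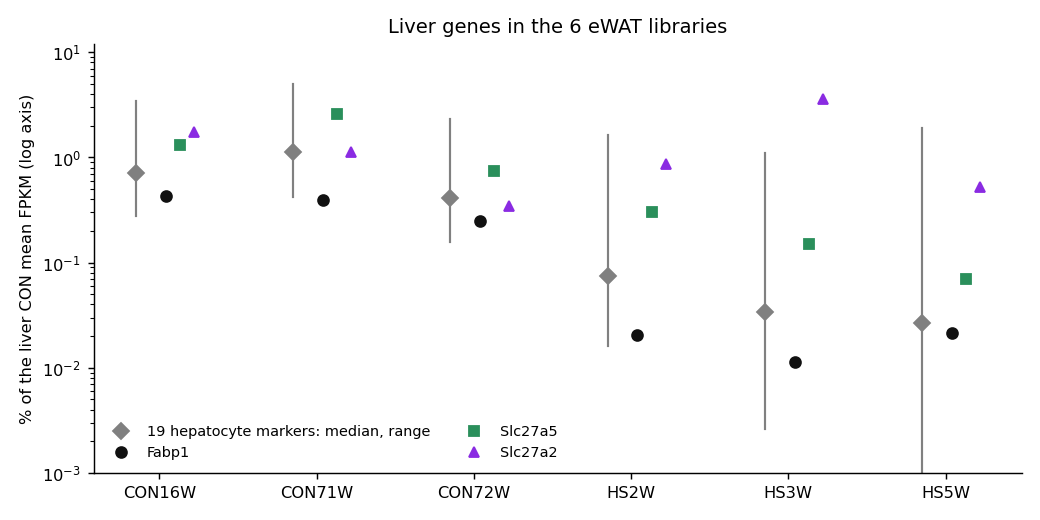
Fabp1, Slc27a5, Slc27a2 and 19 hepatocyte markers (diamond, median; line, range) in the 6 eWAT libraries as a percentage of the mean of the 3 CON livers, on a log axis; the range of HS5W reaches 0, below the axis. Fabp1, Slc27a5 and the marker median are lower in all 3 HSD libraries than in all 3 CON libraries, and Slc27a2 peaks in HS3W at 3.60%.

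Fabp5 was at 30.6, 36.7 and 37.7 FPKM in CON eWAT and at 17.9, 8.89 and 23.2 FPKM in HSD eWAT, with a log2 fold change of -1.15 (SE 0.34, adjusted p = 0.214). Without HS3W the difference was -0.76 (adjusted p = 0.0387), under the fold set for a call. The summed macrophage markers were 592 to 881 FPKM in CON and 258 to 557 FPKM in HSD eWAT. In every library 9 of 10 macrophage markers were at 1 FPKM or more. The summed endothelial markers were 511 to 580 FPKM in CON eWAT. They were 605, 225 and 690 FPKM in HS2W, HS3W and HS5W, so only HS3W lay below CON. The part of either cell type in the Fabp5 difference was not tested.

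Fabp4, Cd36 and Slc27a1, the genes with the highest eWAT levels in their families, did not pass. Fabp4 was at 2778, 960 and 2931 FPKM in HSD eWAT, around the CON values of 2020 to 2100 FPKM, with a log2 fold change of -0.053 (95% CI -1.27 to 1.16, adjusted p = 0.956). Cd36 was at 1500, 461 and 1362 FPKM in HSD, with a log2 fold change of -0.28 (95% CI -1.47 to 0.92). For both genes the HSD libraries lay on either side of CON, 2 above it and HS3W below.

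The 8 adipocyte markers were low in HS3W too, with Adipoq, which encodes adiponectin, at 692 FPKM against 1937 to 2129 FPKM in the other 5 libraries. Without HS3W, Fabp4 was above CON by 0.47 on the log2 scale (SE 0.10, adjusted p = 0.0510) and Cd36 by 0.27, neither past the thresholds. Slc27a1 was at 143, 77.8 and 121 FPKM in HSD, with log2 fold changes of 0.42 with HS3W and 0.67 without it, and was not called in either case.

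The ratio of Fabp4 to Adipoq within a library was alike in HS3W and the other HSD libraries. It was 0.986, 1.02 and 1.01 in CON and 1.43, 1.39 and 1.42 in HSD, so that the 3 HSD libraries lay together and above CON. The ratio to Adipoq was higher in every HSD library for 27.2% of all genes and lower for 1.89%. Among the 8 adipocyte markers as the reference, Fabp4 was above CON with 5 (Adipoq, Plin1, Lep, Cidec and Retn) and overlapped with 3 (Cfd, Adrb3 and Pck1). Slc27a1 was likewise above with 5, and Cd36 was above with 5 and below with 2. Fabp5 was below with 6 of the 8, and Fabp1 and Slc27a5 were below with all 8. Of all genes tested, 18.5% were above with 5 or more of the markers, 1.57% were below with 6 or more and 0.568% were below with all 8. With each library scaled by the geometric mean of the 8 markers, 0 of the 9 genes were called, and Fabp4 gave 0.41 on the log2 scale (adjusted p = 0.634), beside a median of 0.51 over all genes under that scaling.

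**Figure D5:**
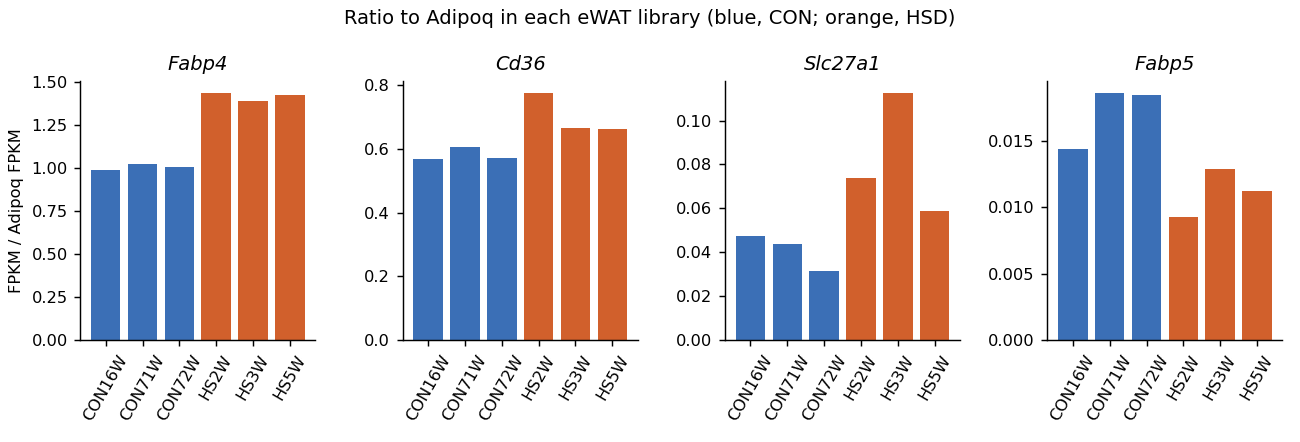
FPKM of Fabp4, Cd36, Slc27a1 and Fabp5 divided by that of Adipoq in each of the 6 eWAT libraries; bars are single libraries (blue, CON; orange, HSD). Fabp4 is at 1.39 to 1.43 in HSD and 0.986 to 1.02 in CON, and Fabp5 is lower in the 3 HSD libraries.

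Fabp3 in eWAT was at 0.909, 0.160 and 0.730 FPKM in CON and at 3.38, 4.94 and 0.836 FPKM in HSD, and the groups overlapped (log2 fold change 1.54, SE 0.59, adjusted p = 0.281, or 1.12 without HS3W). The fast muscle markers summed to 37.8 to 44.7 FPKM in CON and 54.3 to 67.7 FPKM in HSD eWAT, with 2 to 5 and 6 to 10 of 14 markers at 1 FPKM or more. Male germ cell markers summed to 0.540 to 56.1 FPKM in CON and 40.1 to 640 FPKM in HSD. Slc27a4 was at 9.84 to 19.5 FPKM in HSD, highest in HS3W, with a log2 fold change of 0.22 (adjusted p = 0.640) that turned to -0.073 without HS3W. The part of these cell types in the 2 genes was not tested.

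In skeletal muscle 7 of the 10 genes were tested, and Fabp2, Slc27a2 and Slc27a5 were too low. None was called, beside 0.323% of the 10834 genes tested (35 genes, limma), and none of the 7 had an unadjusted p under 0.05, beside 16.3% of all genes. For Fabp3, Cd36 and Slc27a1 the intervals were narrower than in liver and eWAT. Fabp3, the leading binding protein of muscle, was at 424, 551 and 394 FPKM in HSD against 471, 545 and 477 FPKM in CON, with a log2 fold change of -0.14 (95% CI -0.48 to 0.20). Cd36 was at 95.2, 127 and 88.3 FPKM in HSD, with a log2 fold change of 0.10 (95% CI -0.31 to 0.50). Slc27a1 was at 20.9, 14.7 and 15.2 FPKM in HSD, with a log2 fold change of 0.12 (95% CI -0.24 to 0.48). For these 3 genes a change by a factor of 2 lies outside the interval in either direction.

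Slc27a4 was the only tested gene whose muscle groups did not overlap. It was at 2.53, 2.76 and 3.12 FPKM in CON and at 2.35, 2.23 and 2.30 FPKM in HSD, with a log2 fold change of -0.24 (SE 0.12, adjusted p = 0.373). Every HSD library lay below every CON library for 15.6% of all genes.

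Fabp4 in muscle was at 32.8, 79.5 and 70.3 FPKM in HSD, with a log2 fold change of 0.38 (95% CI -0.28 to 1.04, adjusted p = 0.558). The summed adipocyte markers were 96.4, 175 and 76.8 FPKM in the CON muscle libraries and 48.5, 220 and 175 FPKM in the HSD ones. Fabp4 and the adipocyte sum were both lowest in HS2M and both highest in HS3M; the part of adipocyte RNA was not tested. Fabp1 in muscle was at 0.408, 2.09 and 0 FPKM in HSD, and its 2 highest muscle values, 2.90 in CON71M and 2.09 in HS3M, came from the libraries with the highest hepatocyte marker sums, 66.2 and 49.5 FPKM. Fabp5 was at 1.07, 2.44 and 3.10 FPKM in HSD, with a log2 fold change of -0.31 (adjusted p = 0.584).

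Whether diet acted differently between tissues was tested as the difference of the diet effects in 1 fit of all 18 libraries. None of the 10 genes was called for eWAT against liver (background 0.758%), muscle against liver (0.0612%) or eWAT against muscle (0%, limma, with 8% of all genes and 1 of the 10 at an unadjusted p under 0.05). The smallest adjusted p-values were 0.0877 for Slc27a5 and 0.101 for Fabp1, both for eWAT against liver. The 15 libraries of the study's own comparisons leave out CON16L, HS5L and HS5W and keep HS3W. In them 5 genes were called for eWAT against liver (Fabp1, Fabp2, Fabp3, Fabp5 and Slc27a5), beside 18.7% of all genes in that fit. Among them was Slc27a5 with a difference of -2.86 on the log2 scale (SE 0.59, adjusted p = 0.00719). Fabp3 had at most 3 fragments in each liver kept, and 38 and 50 in HS2W and HS3W, against 9 in HS5W. Fabp2 had 0 fragments in every HSD eWAT library. Leaving out HS5L called Fabp1 and Slc27a5, beside 4.15% of all genes, and leaving out CON16L called Slc27a5, beside 1.81%.

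A wider list of 22 genes of fatty acid uptake and trafficking, among them acyl-CoA synthetases, caveolae proteins and lipoprotein lipase, gave no diet call. Of the members tested, 15 in liver, 16 in eWAT and 14 in muscle, 1 per tissue had an unadjusted p under 0.05 (limma). The shares over all genes were 5.74%, 16.7% and 16.3%, so these counts are not read as a result about the list. The gene in question was higher in HSD in each tissue. It was Mfsd2a, a lysophospholipid transporter, in liver, Fabp9 of the testis in eWAT, and Gpihbp1, which anchors lipoprotein lipase to capillaries, in muscle. Male germ cell markers summed to 40.1 to 640 FPKM in HSD eWAT and 0.540 to 56.1 FPKM in CON eWAT. Their part in the Fabp9 difference was not tested. Gpihbp1 was at 9.61 ± 1.34 FPKM in CON and 13.4 ± 1.51 FPKM in HSD muscle (SD, n = 3). The median log2 fold changes of the list were 0.05, -0.06 and -0.03, against 0.13, 0.08 and -0.06 for all genes.

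Among CON tissues 12 of 17 tested genes of that list were called between eWAT and liver, 12 between muscle and liver and 14 between eWAT and muscle, where 11 were higher in eWAT. The shares over all genes in these comparisons, given above, were 67.4%, 48.4% and 53.3%. Lpl was at 1020 ± 152 FPKM in CON eWAT, 71.6 ± 9.44 FPKM in CON muscle and 16.4 ± 26.3 FPKM in CON livers, or 1.23 ± 0.220 FPKM without CON16L (n = 2). Cavin1, a coat protein of caveolae, was at 447 ± 16.9 FPKM in CON eWAT and 50.3 ± 4.80 FPKM in CON muscle.

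Over the 18 libraries the pattern most like that of each member was sought among the other genes, by Pearson's r of log2(FPKM + 0.5). For the liver genes it was that of Hpx (r = 0.996) for Fabp1, Lect2 (r = 0.992) for Fabp2, Sult1d1 (r = 0.998) for Slc27a2 and Pzp (r = 0.998) for Slc27a5, out of 11732 genes. For the genes highest in eWAT it was that of Cfd (r = 0.998) for Fabp4, Akr1b8 (r = 0.989) for Fabp5, Gsn (r = 0.996) for Cd36, Tmcc3 (r = 0.995) for Slc27a1 and Erlin2 (r = 0.985) for Slc27a4. For Fabp3 it was that of Mb (r = 0.993). The next were Mup3, Cpb2, Aass and Akr1c6 for the liver genes, Aqp7, Klhl13, Cavin1, Ezh1 and Arfgap3 for the eWAT genes, and Ckmt2 for Fabp3, each in the same order. Hpx encodes hemopexin, a plasma protein of liver, Mb the myoglobin of oxidative muscle, and Cfd the adipokine adipsin. These values describe 3 tissues of 6 libraries each, and the points share tissue and library.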

How the data were processed

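RNA of liver, eWAT and skeletal muscle was measured in 18 libraries by stranded total RNA sequencing. The authors deposited FPKM per gene. Per the study's methods reads were trimmed, aligned with HISAT2 and summarised per gene with an Ensembl annotation; the submitters' processing notes name HTSeq 0.9.1 and the builds mm9 and mm10 without their roles. A batch correction is mentioned in the study, and whether it touched these values is not given in the sources used here. All sample columns were used.

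From the deposited FPKM and the union of exons of GENCODE M21 (GRCm38), whole fragments were recovered within 0.02 fragments. For high counts, such as those of Fabp4 and Cd36 in eWAT, the tolerance was a small fixed fraction of the count and so wider. They came out whole at that length for 18330 of 18822 genes above 0, and at another length for the other 492. Depth was 7628273 to 16640283 fragments per library.

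Genes with a mean of at least 0.5 FPKM were tested on log2(FPKM + 0.5), which understates the change of low genes, with limma 3.58.1 (R 4.3.3, trended empirical Bayes) and Benjamini-Hochberg adjustment over all genes tested. Diet was fitted per tissue; tissues in CON and the differences of diet effects were fitted over all 18 libraries in 6 groups. A call needed an adjusted p under 0.05 and a log2 fold change of 1 or more in size. DESeq2, the tool of the study, was not run. Limma with voom on the recovered fragments was an alternative. Library names within a group carry different numbers, read here as mouse numbers, and p-values measure the spread between these libraries. The same numbers recur across tissues, so comparisons between tissues share mice, which the main fits did not model. With the mouse number as a random block (correlation 0.0222), 9, 8 and 9 of the 10 genes were called between CON tissues, as in the main fits. For differences of diet effects 0 were called, also as in the main fits. The scripts were tested on simulated data.

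The 10 genes, the 22 further genes and the marker lists were chosen with earlier results of these data known. The rule was to name all 10 genes, those of the 22 that passed a test, and for each of the 10 the 2 non-member genes with the highest Pearson's r over the 18 libraries and the 2 with the highest r over the 6 libraries of its highest tissue, which were computed but are not named in the text; genes named beyond it were chosen after their values were seen. Promoter sequences came from RefSeq (GRCm38.p6); Fabp4, Fabp5 and Slc27a5 had no window.

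Deviations of same-numbered CON and HSD libraries correlated at r = 0.383, 0.177 and 0.184 in muscle. The range was -0.473 to 0.395 in liver and -0.197 to 0.414 in eWAT. Replicate numbers were not taken as pairs in the main fits of any tissue. With the replicate block in muscle 54 genes were called in place of 35, and 0 of the 10 genes in both. Alternatives were other pseudocounts, filters and scalings, voom, library weights, the replicate block, the mouse block, and leaving out libraries.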

Additional observations from a re-analysis of the deposited data

How the results depend on the processing

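Of 1148 values of single genes under alternative settings, 1093 kept their direction and their side of the threshold. All genes called between HSD and CON numbered 35 in muscle, and 97 by adjusted p alone, 54 with the replicate block, 63 with voom, 4 with no filter on low FPKM, 5 with all 18 libraries in 1 fit and 10 to 61 when a library was left out. In eWAT 0 became 161 in 1 fit, 220 with arrayWeights and 0 to 160 with a library left out, and in liver 0 became 41, 926 and 0 to 1, and 35 in the study's libraries. Of the 10 genes, 0 called in eWAT became 1 in 1 fit, 1 with arrayWeights and 0 to 1 with a library left out, and 0 in liver became 3 with arrayWeights. For differences between tissues in the diet effect, 0 became 5, 2 and 1 in the study's libraries (eWAT against liver, muscle against liver, eWAT against muscle), 1 with arrayWeights (eWAT against muscle) and 0 to 2 with a library left out (eWAT against liver). The 5 stood beside 18.7% of all genes. For muscle against liver and eWAT against muscle the share over all genes is not given. The counts of those comparisons are therefore not read as a result about the 10 genes. The replicate block changed no other call. The causes were not tested.

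The median of all genes in liver went from 0.13 to -0.20 on the log2 scale without mitochondrial genes, and in eWAT from 0.080 to 0.51 with adipocyte scaling. Some directions turned. In the study's libraries the liver values were 0.86 for Cd36, 0.40 for Fabp1, 0.044 for Fabp4, 0.29 for Fabp5 and 0.51 for Slc27a1, and Slc27a1 was 0.82 with arrayWeights. In eWAT arrayWeights gave 0.24 for Cd36, 0.42 for Fabp4, -0.084 for Slc27a2 and -0.035 for Slc27a4, and adipocyte scaling, chosen after seeing the data, gave 0.18 for Cd36 and 0.41 for Fabp4. Fabp3 in eWAT against liver was 0.70 in the study's libraries and without CON16L and HS3W. Slc27a4 in muscle against liver was -0.12 with median-ratio scaling, -0.070 without mitochondrial genes and -0.026 with quantile normalization. With a library left out, liver values ranged from -1.97 to 0.49 for Cd36, -0.86 to 0.12 for Fabp1, -1.56 to 0.017 for Fabp4 and -0.41 to 0.53 for Slc27a1. The eWAT values ranged from -0.58 to 0.27 for Cd36, -0.33 to 0.47 for Fabp4, -0.36 to 0.83 for Slc27a2 and -0.073 to 0.40 for Slc27a4. Those in muscle ranged from -1.10 to 0.16 for Fabp1, -0.060 to 0.26 for Cd36, -0.56 to 0.039 for Fabp5 and -0.036 to 0.21 for Slc27a1, and Fabp3 in eWAT against liver from -3.67 to 0.70.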
